A study of Mus musculus with 8 samples.

Results

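The HBO1 complex is a histone acetyltransferase complex, and 7 genes encode the subunits described here: Kat7, Jade1, Jade2, Jade3, Meaf6, Ing4 and Ing5. They were taken by symbol from a table of 34094 genes, each symbol matched 1 row, and all 7 passed the filter on low values. The values come from RNA-seq of the CA1 field of the hippocampus of C57BL/6 mice aged 2 months. There were 4 wild-type (WT) libraries and 4 libraries of a conditional Brpf1 knockout (cKO), whose genotype field reads Brpf1 knockdown. The series title calls the loss of Brpf1 specific to the hippocampus, and the Cre driver, the cells it acts in and the deleted exons are not given in these sources. A protocol speaks of fewer pairs of mice than there are libraries per group, so the p-values reflect variation among these libraries, part of which may be technical.

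KAT7, also called HBO1, is an enzyme of the MYST family that acetylates histones H3 and H4. It acts in complexes built on a scaffold protein, and the scaffold guides the choice of histone: JADE proteins direct KAT7 mainly to histone H4, and BRPF proteins direct it to histone H3. ING4 and ING5 bind methylated histone H3 through a PHD finger, and MEAF6 is a small subunit that several MYST complexes share. BRPF1 itself is best known as the scaffold of KAT6A and KAT6B, in complexes that also hold ING5 and MEAF6. The genes below thus encode known or possible partners of the removed protein, its alternative scaffolds, or the enzyme on which those scaffolds act.

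Levels are given in normalized reads, that is, reads after division by each library's size factor. Fold changes are differences of the group means of log2(normalized reads + 1), and the main test was limma with Benjamini-Hochberg adjustment over the 26135 genes tested. Libraries held from 42346644 to 49897832 reads on genes in WT and from 40330226 to 46559795 in cKO. Brpf1 checked the labels: it ranged from 1358 to 1473 normalized reads in WT and from 848 to 1032 in cKO. It was thus lower in every cKO library than in any WT library, at 66.8% of the WT mean, with a log2 fold change of −0.59 and a limma adjusted p of 0.132, which misses the threshold of 0.05. The authors' deposited table gives it an FDR of 1.47e-07. Some libraries stood apart in single genes. A step of at least 0.89 on the log2 scale above all other libraries was seen at 61 genes in cKO replicate 2, 43 in WT replicate 1, 28 in WT replicate 2 and between 4 and 7 in each of the others, among genes with a log2 value above 8. In cKO replicate 2, the lipid droplet gene Plin4 had 2432 normalized reads against at most 137 in the other 7 libraries. The hypoxia-related factor gene Hif3a had 1527 there against at most 280, and the cell cycle inhibitor gene Cdkn1a had 2372 against at most 488. These 3 genes were singled out after their values were seen.

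None of the 7 HBO1 complex genes passed limma over all genes, and 4 of them (Kat7, Jade1, Jade2 and Meaf6) had cKO means 1.15 to 1.20 times the WT means. The fold change was positive for 6 of the 7, with a median of 0.21 on the log2 scale, while over all genes tested 47.3% were positive and the median was −0.018. Among the 6, the sign did not hold for Jade3, at −0.23 without cKO replicate 2. Nor did it for Ing4, at −0.022 when summed with the overlapping locus Gm44597. Limma called 5 genes in all (0.0191% of those tested), and at such a share a count of 0 among 7 genes says little about the members. At an unadjusted limma p under 0.05 and with a higher level in cKO stood 2 members, Kat7 and Meaf6, against 4.07% of all genes tested. The groups did not overlap, with cKO higher, in 1 member, Meaf6, and in 2.57% of all genes tested. The authors' deposited table has 0.657% of its genes at an FDR under 0.05 and none of the 7 members among them. Its smallest FDR for a member is 0.207, for Meaf6, followed by 0.302 for Kat7.

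**Figure D1:**
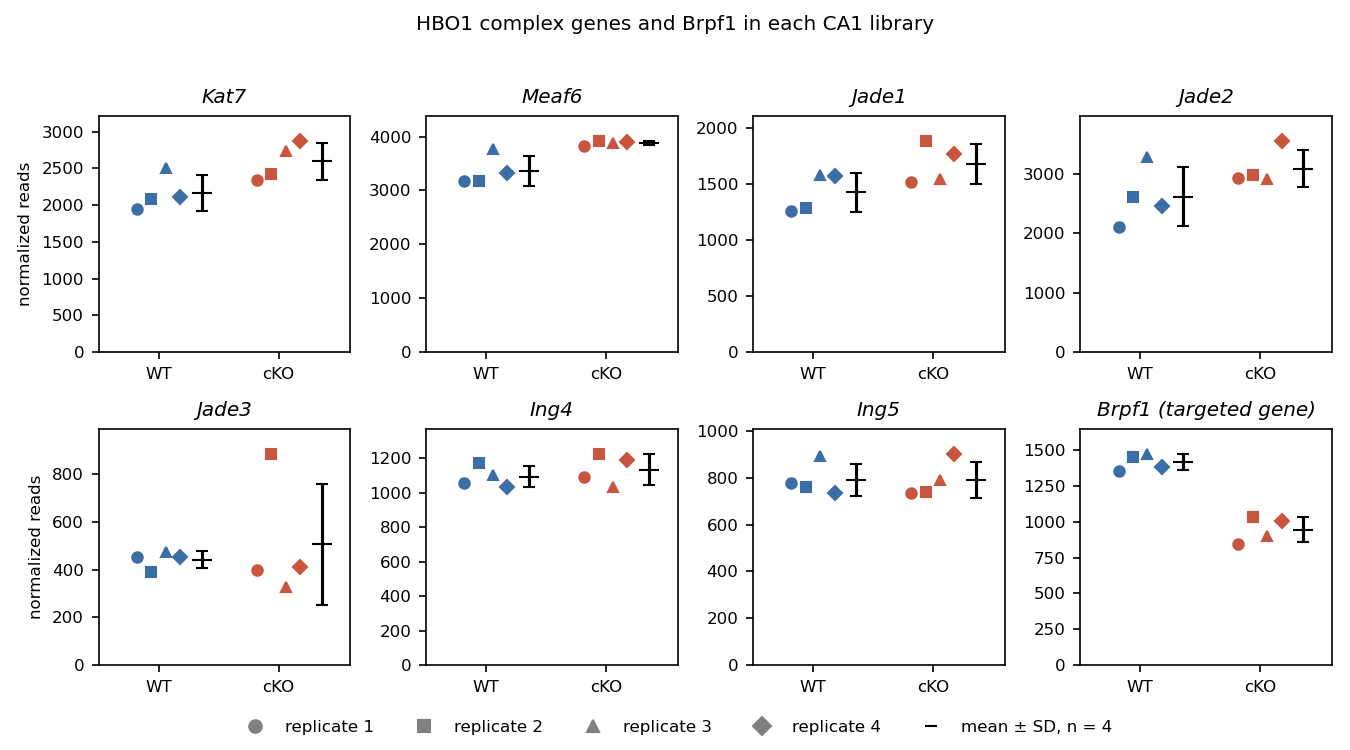
Normalized reads (y axis, from 0) of the 7 HBO1 complex genes and of Brpf1 in each library, by group. Each symbol is 1 library, the shape gives its replicate number, and the black bar is the mean ± SD of 4 libraries. Meaf6 lies between 3169 and 3773 in WT and between 3824 and 3912 in cKO, and Jade3 has 1 cKO library at 885.

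The catalytic subunit gene Kat7 (ENSMUSG00000038909) had 1947, 2080, 2510 and 2114 normalized reads in WT replicates 1 to 4. In cKO replicates 1 to 4 it had 2347, 2422, 2738 and 2867. The groups overlapped through WT replicate 3 alone, which lay above cKO replicates 1 and 2, and the other 3 WT libraries were below every cKO library. Group means were 2163 ± 242 (WT) and 2593 ± 249 (cKO; SD, n = 4; two-sided exact permutation p = 0.0857). On the log2 scale the difference was 0.26 (SE 0.10), which is 1.20-fold with a 95% interval from 1.03 to 1.40, and the limma adjusted p was 0.519. Without WT replicate 3 the log2 fold change was 0.34 and the limma adjusted p 0.362, so Kat7 did not pass there either.

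The genes whose library-to-library pattern was closest to that of Kat7 were Chga, Pnkd and Atp9a. They were sought among 13908 genes whose mean log2 value reached 5 and whose symbol was regular, which leaves out predicted and clone-named genes. Being picked on these same values, their closeness is a description only. The measure was the root mean square difference between log2 values over the 8 libraries, each gene centred on its own mean. It was 0.021 for Chga, which encodes the granule protein chromogranin A, and 0.036 and 0.037 for the other two, where the pattern of Kat7 itself has a root mean square of 0.18. Chga averaged 3153 ± 336 (WT) and 3752 ± 342 (cKO) normalized reads (SD, n = 4), and its limma adjusted p was 0.519.

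The shared subunit gene Meaf6 (ENSMUSG00000028863) was the 1 member whose groups did not overlap. It had 3169, 3185, 3773 and 3329 normalized reads in WT replicates 1 to 4. In cKO replicates 1 to 4 it had 3824, 3912, 3882 and 3899. WT replicate 3 was again the highest of its group and fell 51.7 reads short of the lowest cKO library. The cKO libraries were close to each other, with a coefficient of variation of 1.00% against 8.38% in WT. At 3553 to 4072 reads per cKO library, the counting of reads alone would spread values by more than that 1.00%. This closeness is thus a description only. Group means were 3364 ± 282 (WT) and 3879 ± 38.8 (cKO; SD, n = 4). The two-sided exact permutation p was 0.0286, the minimum for 4 against 4. Limma put the log2 fold change at 0.21 (SE 0.074), or 1.16-fold with a 95% interval from 1.03 to 1.30. The limma adjusted p was 0.513, and 881 of the genes tested had a smaller unadjusted p.

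Closest to the pattern of Meaf6 over the 8 libraries were Kif1bp, Depdc5 and Ptpra, with root mean square differences of 0.024, 0.030 and 0.032 where Meaf6 itself has 0.13. Kif1bp averaged 5971 ± 579 (WT) and 6938 ± 213 (cKO) normalized reads (SD, n = 4), with a limma adjusted p of 0.512.

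The scaffold genes of the JADE family differed in how their libraries spread. Jade1 (ENSMUSG00000025764), whose product also binds the tumour suppressor VHL, had 1261, 1281, 1581 and 1567 normalized reads in WT replicates 1 to 4 and 1512, 1877, 1539 and 1763 in the cKO replicates. WT replicates 3 and 4 lay above cKO replicates 1 and 3, so the groups overlapped. The means were 1422 ± 175 and 1673 ± 177 (SD, n = 4; two-sided exact permutation p = 0.171), and the log2 fold change was 0.24 (SE 0.11, limma adjusted p = 0.587). Its 95% interval ran from 0.994-fold to 1.40-fold.

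Jade2 (ENSMUSG00000020387) had 2098, 2610, 3285 and 2459 normalized reads in WT replicates 1 to 4. In cKO replicates 1 to 4 it had 2925, 2979, 2909 and 3548. Only WT replicate 3 reached into the cKO range, and it lay above 3 of the 4 cKO libraries. The means were 2613 ± 497 and 3090 ± 307 (SD, n = 4; two-sided exact permutation p = 0.171). The log2 fold change of 0.26 (SE 0.13, limma adjusted p = 0.599) has a 95% interval from 0.980-fold to 1.45-fold. It was 0.37 without WT replicate 3 and 0.16 without WT replicate 1, with limma adjusted p of 0.364 and 0.795.

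Jade3 (ENSMUSG00000037315), the family's X-linked member, depended on 1 library. It had 451, 390, 476 and 453 normalized reads in WT replicates 1 to 4. In cKO replicates 1, 3 and 4 it had 400, 326 and 412, while cKO replicate 2 had 885. The cKO mean of 506 ± 256 (SD, n = 4) against 443 ± 36.7 in WT therefore rests on 1 library. Its log2 fold change was 0.081 (SE 0.26, limma adjusted p = 0.963) with all libraries. Without cKO replicate 2 it was −0.23 (SE 0.13, limma adjusted p = 0.577), with cKO at 379 ± 46.8 (SD, n = 3), so the direction of Jade3 turned with that library. With all 8 libraries the 95% interval of the fold, from 0.709 to 1.58, is the widest among the 7 members.

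The height of Jade3 in cKO replicate 2 came with that of other genes. In that library Jade3 exceeded every other library by 0.89 on the log2 scale, and it is 1 of the 61 genes, of 11845 with a log2 value above 8 there, that did so by at least as much. Plin4, Hif3a and Cdkn1a, given above, are among the 61, and their part in the value of Jade3 was not tested.

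**Figure D2:**
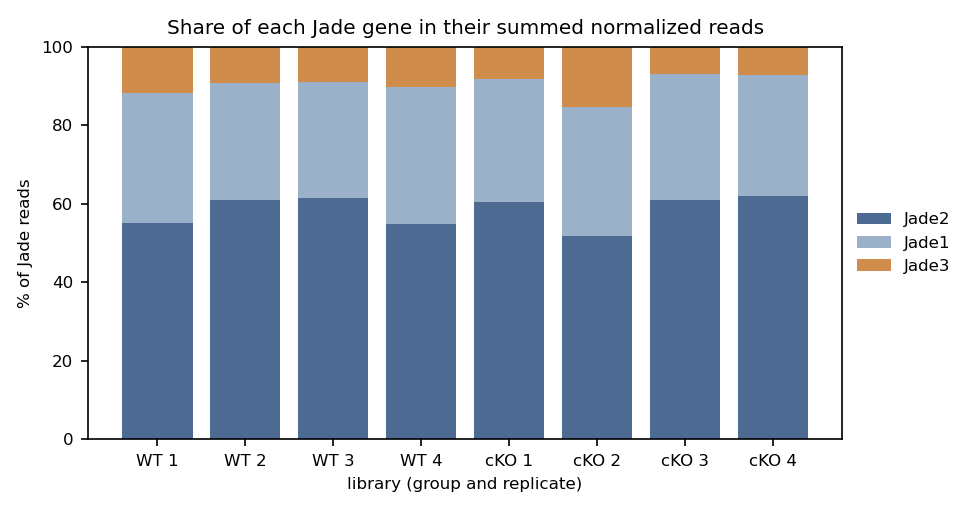
Share of Jade2, Jade1 and Jade3 in the summed normalized reads of the 3 genes (y axis, percent) in each library (x axis). Jade2 holds between 51.9% and 62.0% of the reads in every library, and Jade3 holds 15.4% in cKO replicate 2 and at most 11.8% elsewhere.

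Within the JADE family, Jade2 gave the most reads in every library. Jade2 held 58.1 ± 3.61% of the summed reads of the 3 genes in WT and 58.8 ± 4.67% in cKO, and Jade1 held 31.9 ± 2.59% and 31.8 ± 0.871% (SD, n = 4). Jade3 held 9.99 ± 1.34% and 9.43 ± 4.04%, with cKO replicate 2 at 15.4% and the other cKO libraries between 6.82% and 8.27%, below every WT library (8.91% to 11.8%). Because cKO replicate 2 was set aside after its value was seen, that separation is a description only. With all cKO libraries their range, 6.82% to 15.4%, spans the whole WT range. The difference of the means, cKO minus WT, was −0.57 percentage points with all libraries and −2.56 without cKO replicate 2. These shares compare reads and not molecules, because the genes differ in length, and they were not tested. Summed over the family, reads came to 4478 ± 641 (WT) and 5269 ± 536 (cKO; SD, n = 4), with ranges that overlap.

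The genes for the ING readers of methylated histone H3 lay almost level between the groups. Ing4 (ENSMUSG00000030330) had 1059, 1175, 1103 and 1035 normalized reads in WT replicates 1 to 4 and 1090, 1226, 1032 and 1191 in the cKO replicates. The groups overlapped throughout, at 1093 ± 61.4 and 1135 ± 89.3 (SD, n = 4; two-sided exact permutation p = 0.457). For Ing4 the log2 fold change was 0.052 (SE 0.089, limma adjusted p = 0.899), and the 95% interval of the fold ran from 0.905 to 1.19.

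Ing5 (ENSMUSG00000026283) had 779, 760, 892 and 738 normalized reads in WT replicates 1 to 4. In cKO replicates 1 to 4 it had 736, 739, 790 and 902. Both groups had a mean of 792, with an SD of 68.9 in WT and 77.7 in cKO (n = 4; two-sided exact permutation p = 0.971). For Ing5 it was −0.0022 on the log2 scale (SE 0.10; limma adjusted p = 0.997), and the 95% interval of the fold, from 0.851 to 1.17, sets how large a difference these libraries leave possible. Ing4 held 58.0 ± 2.26% of the reads of the pair (WT) and 58.9 ± 2.70% (cKO; SD, n = 4).

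The reads of Ing4 may not all be separable from a neighbour. The locus Gm44597 overlaps Ing4 on the same strand in GENCODE M21, and it had 264, 170, 105 and 233 normalized reads in WT replicates 1 to 4 and 164, 112, 165 and 86.2 in the cKO replicates. That is 17.7 reads per 100 of Ing4 in WT and 11.6 in cKO. Summed with it, Ing4 stood at 1286 ± 61.4 (WT) and 1267 ± 58.3 (cKO; SD, n = 4; two-sided exact permutation p = 0.657), a log2 difference of −0.022. Adding all reads of Gm44597 thus turned the sign of the Ing4 difference, and both values are near 0. Gene totals cannot tell which of these reads came from the overlap, so their assignment was not tested. Acrbp, which follows Ing4 on the same strand without overlapping it and does overlap Gm44597, had 208 ± 29.0 (WT) and 151 ± 63.3 (cKO) normalized reads (SD, n = 4), or 19.0 and 13.3 per 100 of Ing4. The locus 4930557K07Rik, antisense to Ing4, had at most 13.2 in any library, or 1.05 per 100 of Ing4 in WT. Antisense loci at or next to Kat7, Jade1 and Meaf6 had at most 18.1 normalized reads in any library and at most 0.300 reads per 100 of the member in either group.

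**Figure D3:**
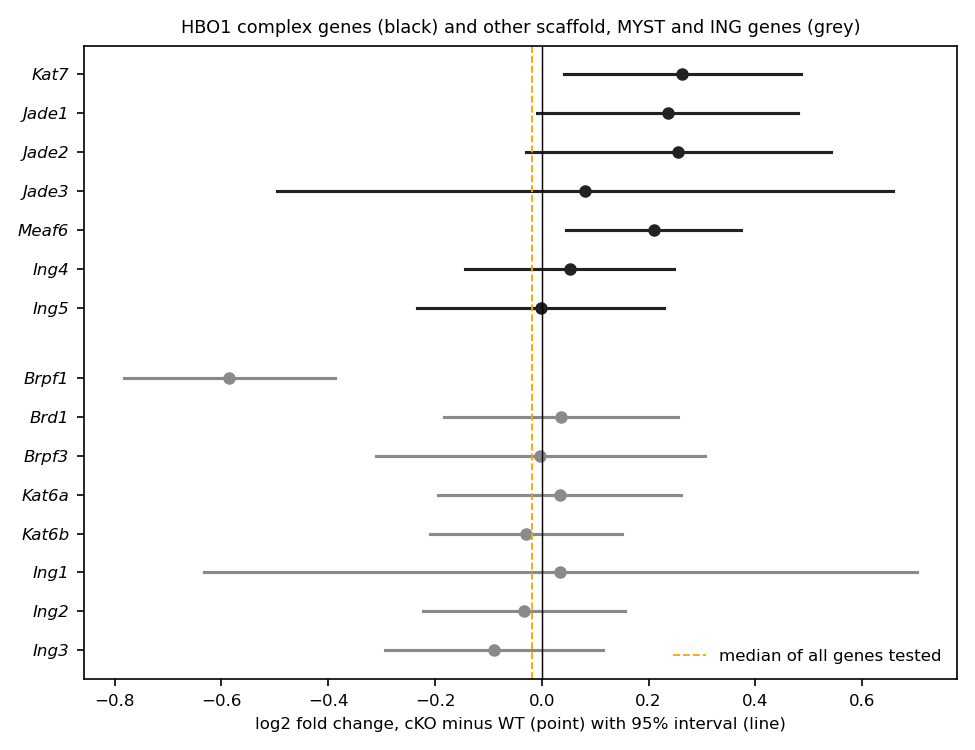
Log2 fold change of cKO minus WT (x axis) for the 7 HBO1 complex genes in black, and for Brpf1, other scaffold and MYST genes and other ING genes in grey. Points are limma estimates from 4 against 4 libraries, lines are 95% intervals without adjustment, and the dashed line is the median of all genes tested. The intervals of Kat7 and Meaf6 lie above 0, and that of Brpf1 lies below it, from −0.78 to −0.39.

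Per length, Meaf6 was the most abundant of the 7 transcripts and Jade3 the least. In WT, normalized reads per kilobase of annotated exon were 646 ± 54.1 for Meaf6, 391 ± 43.8 for Kat7, 243 ± 46.2 for Jade2, 205 ± 11.5 for Ing4, 168 ± 14.6 for Ing5, 168 ± 20.6 for Jade1 and 85.0 ± 7.05 for Jade3 (SD, n = 4). Meaf6, Kat7 and Jade3 were separated from their neighbours in that order in every WT library, while Jade2 and Ing4, and Ing5 and Jade1, overlapped. In cKO the level of Meaf6 was 744 ± 7.45 per kilobase, that of Kat7 468 ± 45.0, that of Jade2 287 ± 28.5 and that of Ing4 213 ± 16.8 (SD, n = 4). Jade1 stood at 197 ± 20.8, Ing5 at 167 ± 16.4 and Jade3 at 97.1 ± 49.1, and in cKO replicate 2 Jade3 stood above Ing5. With the length of the longest annotated transcript in place of all exons, Meaf6 and Kat7 stayed first and second in all 8 libraries, and Jade1 stood above Ing5 in all 8. Lengths come from GENCODE M21 and not from the authors' annotation, so these levels are approximate.

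Several members were high in the same libraries. In WT replicate 3, 6 of the 7 genes had their highest WT value, the exception being Ing4, and all 7 lay above their WT mean of log2 values, by a median of 0.17. In WT replicate 1, 4 of the 7 had their lowest WT value. Among the cKO libraries, replicate 2 held the highest value of 4 genes and replicate 4 that of the other 3, while replicate 1 had none of the 7 above the cKO mean. With WT replicate 3 left out, the groups no longer overlapped for Kat7 and Jade2 either, at 2047 against 2593 and 2389 against 3090 normalized reads on average. In that setting 6.01% of the 25538 genes tested had cKO above WT without overlap, and the library was picked for its high values in these genes, so the 2 separations are a description only.

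**Figure D4:**
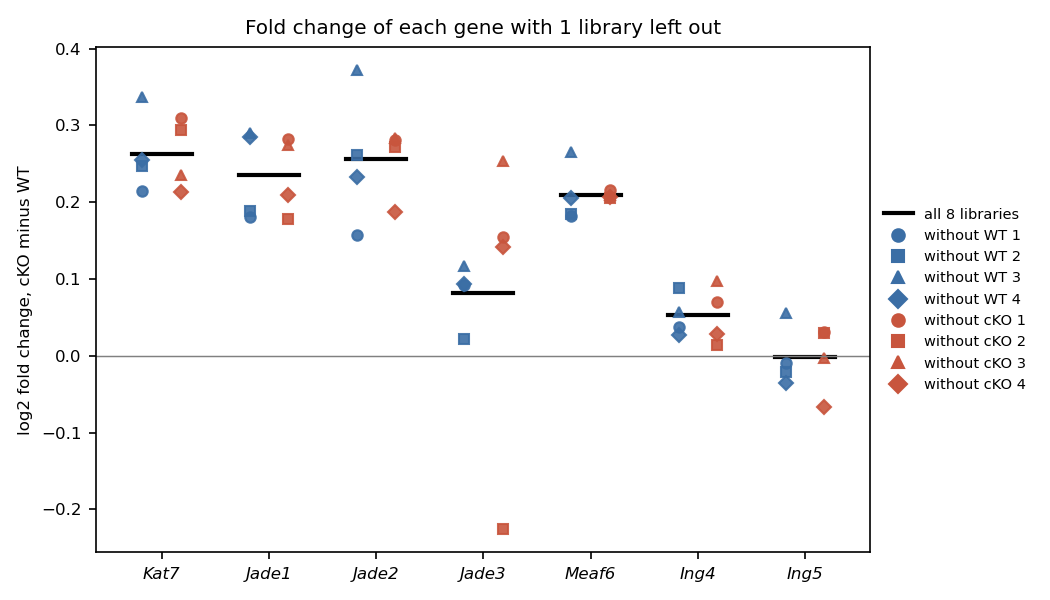
Log2 fold change of cKO minus WT (y axis) for each HBO1 complex gene with all 8 libraries (black bar) and with 1 library left out (symbols, colour for group and shape for replicate). Kat7, Jade1, Jade2, Meaf6 and Ing4 stay above 0 in all 8 cases, Jade3 lies at −0.23 without cKO replicate 2, and Ing5 lies on both sides of 0.

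Of the alternative scaffolds that can join KAT7, Brd1 (also called BRPF2) and Brpf3 had log2 fold changes of 0.036 (SE 0.099) and −0.0031 (SE 0.14), with limma adjusted p of 0.953 and 0.997. The other MYST partners of BRPF1, Kat6a and Kat6b, stood at 0.034 and −0.029. In that list of 5 genes 1, Brpf1, had an unadjusted limma p under 0.05, and the list's median was −0.0031. The other ING genes had a median of −0.034 over 3 genes, none with an unadjusted limma p under 0.05, and the smallest p belonged to Ing3 of the TIP60 complex (log2 fold change −0.090, SE 0.093). Of all 26135 genes tested, 1063 higher and 1203 lower in cKO had an unadjusted limma p under 0.05. At such a share, finding none among 3 genes says little about them.

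Subunits of other MYST complexes were counted in the same fit. In the TIP60 complex, built around KAT5, 11 of 16 genes had a positive fold change, with a median of 0.068 on the log2 scale and 0 called. That list leaves out Meaf6, given above, and Ing3, counted with the other ING genes. Of all genes tested, 47.3% were positive, 0.0191% were called and 2.57% had cKO above WT without overlap. At such a share of calls, 0 among 16 says little about the complex. Dmap1 averaged 594 ± 16.3 (WT) and 711 ± 47.1 (cKO) normalized reads (SD, n = 4) with no overlap, but a limma adjusted p of 0.512. Vps72, whose product is a histone chaperone for H2A.Z, had 767 ± 83.8 and 938 ± 99.5, with a limma adjusted p of 0.529. In the MSL and NSL complexes, built around KAT8, 7 of 12 genes were positive with a median of 0.040, and Mcrs1 had 2012 ± 177 and 2442 ± 301 (SD, n = 4; limma adjusted p = 0.519). Acetyltransferases outside the MYST family had 4 of 6 positive and a median of 0.048, and the smallest p was that of Kat2b (log2 fold change −0.16, SE 0.10, limma adjusted p = 0.661).

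HBO1 takes its name from binding to ORC1, a subunit of the origin recognition complex, and it acts in loading the MCM helicase before DNA replication. Of 15 genes of replication licensing, 11 had a positive fold change, the median was 0.069, and 0 passed limma over all genes or an unadjusted limma p under 0.05. Of all 26135 genes tested, 47.3% were positive, and 1063 higher and 1203 lower in cKO had an unadjusted limma p under 0.05. At such shares a count of 0 says little about these 15 genes. Orc2 had the smallest p among them, at 1933 ± 111 (WT) and 1760 ± 135 (cKO) normalized reads (SD, n = 4; limma adjusted p = 0.645). Orc1 itself averaged 44.7 ± 7.19 (WT) and 45.4 ± 9.76 (cKO), the loading factor gene Cdc6 25.4 ± 9.07 and 23.7 ± 12.7, and Cdt1 32.9 ± 7.90 and 33.3 ± 7.28 (SD, n = 4), few reads for a comparison of small differences.

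**Figure D5:**
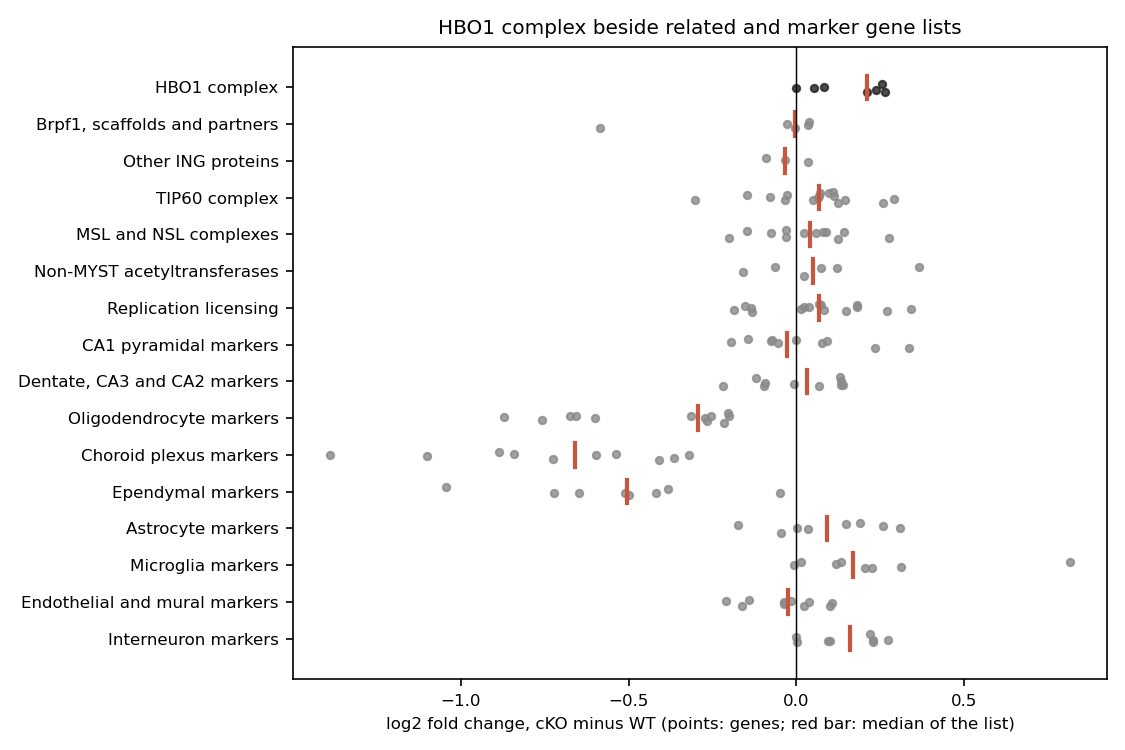
Log2 fold change of cKO minus WT (x axis) for single genes (points) in the HBO1 complex, in related complexes and in marker lists of cell types (y axis), with the median of each list as a red bar. The HBO1 complex has a median of 0.21, and every oligodendrocyte, choroid plexus and ependymal marker lies below 0.

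Markers of cell types were read beside the tissue label. Their presence does not test that label, because markers of every listed type were found. All 84 marker genes were present in every library, with at least 35 reads, including CA1 markers such as Camk2a and Neurod6. Markers of the neighbouring dentate gyrus, CA3 and CA2, such as Pcp4 and Cpne4, were present as well, although the tissue field names CA1 alone. Markers of 3 cell types outside the neurons had negative fold changes throughout: 12 of 12 for oligodendrocytes (median −0.29), 10 of 10 for choroid plexus (−0.66) and 8 of 8 for ependyma (−0.50), with 0 called. Of all genes tested, 47.3% had a positive fold change and 0.0191% were called, so the count of 0 says little about these lists. Summed oligodendrocyte markers ranged from 123211 to 180485 normalized reads in WT and from 100269 to 155287 in cKO. Summed choroid plexus markers ranged from 5661 to 170007 and from 11002 to 48842, and ependymal ones from 1198 to 2653 and from 1147 to 1479. Astrocyte (6 of 8 positive, median 0.091), microglia (7 of 8, 0.17) and interneuron markers (7 of 8, 0.16) had medians on the side of Kat7 and Meaf6, and CA1 pyramidal markers had a median of −0.028 (4 of 10). In bulk tissue, fewer cells of a type and less RNA per cell cannot be told apart, and the part of these cell types in the values of the HBO1 genes was not tested. WT replicate 3, the highest WT library for 6 members, also had the highest mean log2 value of its group for oligodendrocyte (12.38), interneuron (11.62), endothelial and mural (9.33), astrocyte (13.25), and dentate, CA3 and CA2 markers (11.64). Its mean was the lowest for microglia markers (9.85), where P2ry12 had 84.6 normalized reads against 683 to 1626 in the other WT libraries. Of the same markers, Cx3cr1 (791) and Csf1r (2588) were highest of WT in that library, and C1qb (1734) was lowest. WT replicate 3 was also the highest WT library in the lists of the TIP60 complex (10.93), non-MYST acetyltransferases (10.86), other ING genes (10.15) and the BRPF scaffolds with their KAT6 partners (11.04). It was not the highest for the MSL and NSL complexes, replication licensing, or CA1 pyramidal, choroid plexus and ependymal markers.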

How the data were processed

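RNA-seq libraries of CA1 tissue (4 WT, 4 cKO) were made with Trizol extraction and a stranded mRNA kit, per the labels' protocols. STAR, StringTie and DESeq2 and the genome build mm9 are named, per the submitters' processing notes; versions, the annotation and the strand setting are not given in these sources. The authors deposited 1 log2 value per gene and library, equal to log2(reads / size factor + 1). All values checked, which leaves out the highest read counts, were whole multiples of 1 read (tolerance 0.001 reads), so reads and depth could be computed. The authors' deposited p-value, FDR and log2 fold change were read as given; their column of group means was not used.

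Log2 values were compared by limma 3.58.1 in R 4.3.3 (trended prior variance, robust, group as the only term). Genes entered when 4 or more libraries reached a normalized value of 1, with a threshold of 0.05 on the adjusted p. Normalized reads of single genes were also compared by exact permutation (two-sided). The script was tested on simulated data. Exon lengths and overlaps came from GENCODE M21 (GRCm38); no coordinates are printed, because the builds differ.

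Members and lists were chosen with earlier results of these data known. All 7 members are given in full. From related lists the text names genes with an unadjusted p under 0.05 or, where there is none, the smallest p; from marker lists it names some of the most abundant genes; and it names the 3 genes closest in pattern to Kat7 and to Meaf6. Brd1, Brpf3, Kat6a, Kat6b, Orc1, Cdc6 and Cdt1 and the overlapping loci fall outside that rule. The alternatives were a filter value of 10 or no filter, quantile normalization, array weights, a pseudocount of 0.1, limma-voom on the recovered reads, a replicate block, and leaving out each library.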

Additional observations from a re-analysis of the deposited data

Results flagged for a closer look

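In groups of 4 libraries, 26 sets of values (7 members, Brpf1, the summed Jade reads and the paralog shares) were checked for 1 library far from the rest, and chance marks about 1 set in 20. The sets are not independent, because the summed Jade reads and the shares are built from the reads of the members. Jade3 in cKO replicate 2 had 885 normalized reads, and the gap to the next library took up 84.6% of the range of its group. The same library had the lowest Jade2 share (51.9%) and the highest Jade3 share (15.4%) of the Jade reads among the cKO libraries. Both shares contain that Jade3 value and are not separate observations. Jade2 in cKO replicate 4 had 3548 normalized reads, while the other 3 cKO libraries lay between 2909 and 2979.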

How the results depend on the processing

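Over 15 alternative settings, 0 of the 7 members and 0 genes of the other lists passed limma over all genes. Log2 fold changes stayed positive for Kat7 (0.21 to 0.34), Jade1 (0.18 to 0.29), Jade2 (0.16 to 0.37), Meaf6 (0.17 to 0.27) and Ing4 (0.014 to 0.097). Their unadjusted limma p was under 0.05 in 10 settings for Kat7, 14 for Meaf6, 3 for Jade1, 2 for Jade2 and 0 for Ing4. Jade3 turned to −0.032 with array weights and to −0.23 without cKO replicate 2, the lowest of the values with 1 library left out, which reached 0.25. Ing5, near 0, turned to 0.0033 with quantile normalization and 0.033 with array weights, and leaving out 1 library gave −0.067 to 0.056, with 0.056 without WT replicate 3, 0.031 without cKO replicate 1 and 0.029 without cKO replicate 2. The cause was not tested. The Jade3 share of Jade reads differed by −0.57 percentage points, cKO minus WT, and by −2.56 (without cKO replicate 2) to 0.30 with 1 library left out. The log2 fold change of Brpf1 stayed between −0.63 and −0.53 (limma adjusted p 0.0619 to 0.484). The count of genes called was 5, 8 with array weights, 2 with the replicate block and 3 to 7 with 1 library left out. Same-numbered libraries had correlations of −0.050 to 0.064, and differently numbered ones −0.08 to 0.06. No pairing was thus seen in these values, which cannot exclude that the numbers pair the samples. With the replicate block, log2 fold changes equalled the unblocked ones, and the limma adjusted p was 0.484 for Kat7 and 0.499 for Meaf6. The members had at least 298 reads in each library; whether deeper sequencing would change a call was not tested.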
